A study of Mus musculus with 8 samples.

Results

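The comparison described here is between 4T1 tumors without CD95 grown in immunocompetent Balb/c mice and tumors of the same clones grown in immunodeficient NSG mice. Its members are the 4 libraries of CD95 knockout tumors among the 8 libraries of the series, chosen by host strain and cell line in the sample titles. 4T1 cells come from a mammary carcinoma of a Balb/c mouse and are used to model triple-negative breast cancer. Both groups carried a CRISPR/Cas9 knockout of CD95, the death receptor encoded by Fas, in clones 54 and 69, and each clone was grown in the mammary fat pad of both hosts for at most 20 days. The NSG group was clone 54 in NSG and clone 69 in NSG, and the Balb/c group was clone 54 in Balb/c and clone 69 in Balb/c, with no other treatment in the labels and no age of the mice. The other 4 libraries, parental 4T1 and 4T1 expressing vCas9 in each host, are the wild-type tumors with which the host effect was compared. The 2 libraries of a group are therefore different clones, and whether a library held 1 tumor or several is not stated, so p-values measure the spread between these libraries only.

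CD95 is known for killing cells that meet its ligand, Fasl, on cytotoxic T cells and natural killer (NK) cells, through FADD and caspase-8. NSG mice derive from the NOD strain and carry a scid mutation in Prkdc, which stops T and B cell receptor rearrangement, and a null allele of Il2rg, the common chain of several interleukin receptors, without which NK cells do not develop. Their macrophages, neutrophils, mast cells and eosinophils remain, so the cells missing from the NSG host are the lymphocytes. Whether the remaining cells work as they do in Balb/c mice was not tested. Balb/c mice also share the strain background of 4T1, whereas NSG mice do not, and immune competence and strain cannot be told apart in this design. In RNA from whole tumors, fewer cells of a type and less RNA per cell cannot be told apart either.

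Totals were 9103844 and 8680070 counts in the NSG knockout libraries and 19655945 and 14422706 in the Balb/c ones, with 11567185 to 15658765 in the 4 wild-type libraries. Levels are in CPM (each library's counts scaled to the same total) on TMM-scaled totals and are given for clone 54 first and clone 69 second. Fas was still read in every knockout library, at 29.5 and 12.9 CPM in NSG and 27.1 and 33.7 CPM in Balb/c, against 33.9 and 22.6 CPM in NSG and 51.6 and 46.9 CPM in Balb/c in wild-type tumors. The knockout and wild-type libraries overlapped in NSG and did not in Balb/c, where both knockout libraries were lower. Transcript reads do not show whether a knockout allele encodes protein. The knockout was made in the 4T1 clones, and Fas reads of tumor cells and of host cells cannot be told apart in whole tumors. The knockout status therefore rests on the labels. Between hosts Fas did not pass in knockout tumors (log2 fold change 0.52, SE 0.37, edgeR adjusted p-value 0.315). Il2rg followed the host labels, at 7.49 and 6.56 CPM in NSG and 157 and 117 CPM in Balb/c (log2 fold change 4.29, SE 0.22, edgeR adjusted p-value 0.000186). The clones differed more in Balb/c than in NSG. Log2 CPM correlated across genes with r of 0.971 between the NSG libraries and 0.956 between the Balb/c libraries. A clone difference above 2 log2 units was seen for 163 genes in NSG and 513 in Balb/c. The clone 54 tumor in Balb/c stood apart from the other 3 in epithelial genes: the summed level of 16 epithelial and keratin genes was 3803 and 2519 CPM in NSG and 795 and 4505 CPM in Balb/c.

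The host effect covered 4757 of 15310 genes tested (31.1%) at an edgeR adjusted p-value under 0.05. Of these, 2403 (15.7% of those tested) were higher and 2354 (15.4%) lower in Balb/c, and 685 and 843 of them by more than 4-fold. With the clone as a block, 2878 genes passed (18.8%), 1415 higher (9.24%) and 1463 lower (9.56%), and 2849 of them were among the 4757 with the same direction. Without clone 69 in NSG the count was 2461. Every gene list below is read against these background shares, and a call described as lost without a library refers to the 4 knockout libraries unless others are named. Over all genes tested, the median log2 fold change was 0.02. Scaling by total counts moved this median to -0.17 and the higher share of the calls from 50.5% to 37.3%. The plot of all listed genes shows lymphocyte, antigen presentation and macrophage lists to the right of the median of all genes and collagen, fibroblast, adipocyte and cell cycle lists to its left.

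**Figure D1:**
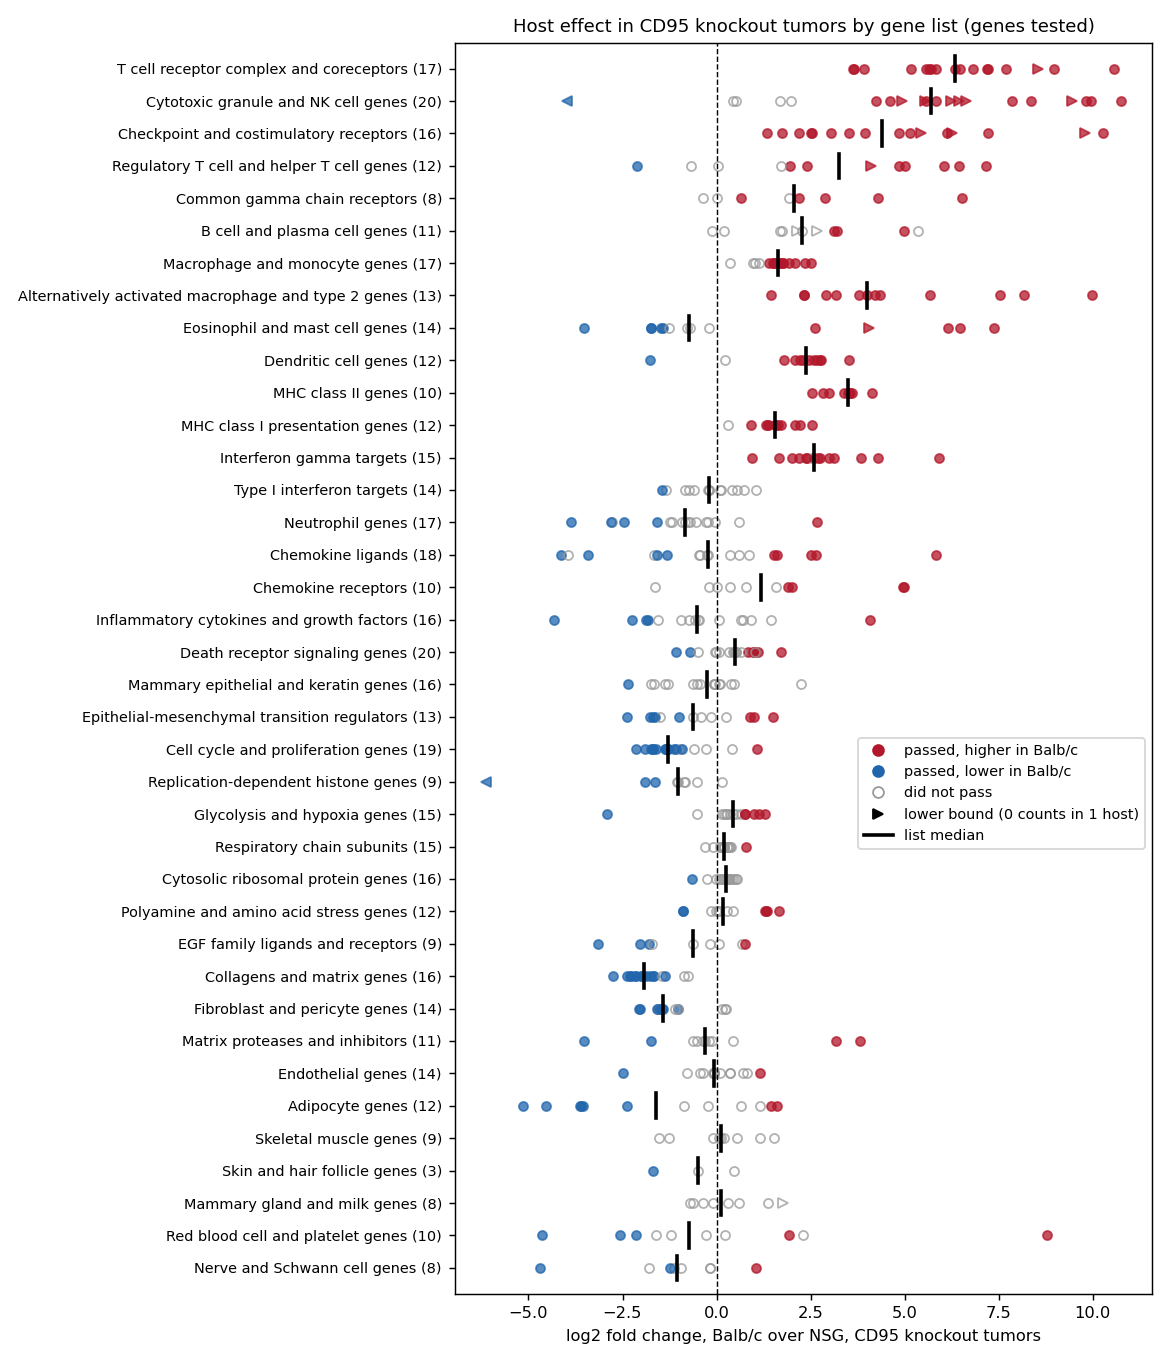
Host effect of each listed gene in CD95 knockout tumors: the horizontal axis is the log2 fold change of Balb/c over NSG, each row is a gene list with its number of genes tested, and each point is a gene, filled where it passed. Triangles are lower bounds for genes with 0 counts in one host, black bars are list medians and the dashed line is the median of all genes. All 17 tested T cell receptor genes and all 10 class II genes lie to the right, and all 13 collagen and matrix genes that passed lie to the left.

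T cell genes were nearly absent from the NSG tumors and present in both Balb/c tumors. Of the 20 genes listed for the T cell receptor complex and its coreceptors, 17 were found and tested, and 17 of 17 were higher in Balb/c, against 15.7% of all genes. Their median log2 fold change was 6.32, their summed level was 9.84 and 13.1 CPM in NSG and 709.7 and 725 CPM in Balb/c, and all 17 kept the call with the block and without each of the 4 knockout libraries in turn. Among the signaling chains of the receptor, Cd3e was at 0.107 and 0.298 CPM in NSG and 26.0 and 37.5 CPM in Balb/c (log2 fold change 7.20, SE 0.47, edgeR adjusted p-value 0.000238). Cd3g had 0 counts in both NSG libraries and reached 58.8 and 56.3 CPM in Balb/c, at least 374-fold higher than the floor of 3 counts over the NSG group. The ranges of the hosts did not touch for either chain, and the Balb/c clones lay close together.

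The coreceptors divide helper from cytotoxic T cells. Cd4 was at 2.68 and 4.18 CPM in NSG and 46.3 and 38.1 CPM in Balb/c (log2 fold change 3.62, SE 0.48, edgeR adjusted p-value 0.00174), a 12.3-fold difference. Cd8a was at 0.535 and 0.597 CPM in NSG and 59.0 and 71.0 CPM in Balb/c (log2 fold change 6.82, SE 0.50, edgeR adjusted p-value 0.000296), a 113-fold difference, and its partner chain Cd8b1 was 584-fold higher (counting interval 104 to 23073). Counting intervals here and below are exact 95% intervals for groups with 1 to 3 counts and cover counting error only. Some mouse macrophages are known to express Cd4, and neither coreceptor overlapped between hosts. The kinases that relay the receptor's signal, Lck and Zap70, were at 1.07 and 1.19 against 53.7 and 55.1 CPM and 0.214 and 0.298 against 22.5 and 20.3 CPM, NSG against Balb/c.

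Genes of killing were higher in Balb/c as well. Of 20 cytotoxic granule and NK cell genes, 15 were higher, 1 was lower and 4 did not pass, with a median of 8.10, or 5.70 with genes absent from one host set at their bounds. Prf1, the pore-forming perforin, was at 0 and 0.0994 CPM in NSG and 55.2 and 66.4 CPM in Balb/c, 1162-fold higher (counting interval 208 to 45912). The granule protease Gzma was at 0.107 and 0 CPM in NSG and 119.7 and 89.5 CPM in Balb/c, 2076-fold higher (counting interval 372 to 82002), and Gzmb, with 0 counts in NSG, reached 81.6 and 145 CPM and was at least 699.8-fold higher. Perforin and both granzymes were thus at 1 count or fewer in each NSG library.

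The ligand of CD95 was among these genes. Fasl was at 0.214 and 0 CPM in NSG and 39.3 and 34.0 CPM in Balb/c, 359.6-fold higher (counting interval 99.3 to 2973), so its transcript was present in both Balb/c tumors whose cancer cells were made to lack its receptor. Ifng, which encodes interferon gamma, had 0 counts in NSG and 17.5 and 12.3 CPM in Balb/c, at least 98.9-fold higher. NK receptor genes moved with them: Ncr1, which marks NK cells, was at least 74.6-fold higher, Klrk1 was 57.0-fold higher at 1.28 and 0.298 against 47.0 and 42.8 CPM, and Klrd1 was 249.6-fold higher (counting interval 68.9 to 2064). Klra8 went the other way, from 1.498 and 1.39 CPM in NSG to 0 in both Balb/c libraries, at least 15.7-fold lower. Gene content of the Klra family is known to differ between mouse strains, and near-identical copies make this value uncertain. Gzmc, Gzmd and Gzme, granzymes at no more than 7.44 CPM in any library, did not pass, with adjusted p-values of 0.493, 0.0576 and 0.551, nor did Eomes, at 7.70 and 0.895 against 17.6 and 15.9 CPM. Gzmf passed (log2 fold change 5.57, SE 1.16, edgeR adjusted p-value 0.0125) and lost the call without clone 69 in NSG.

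**Figure D2:**
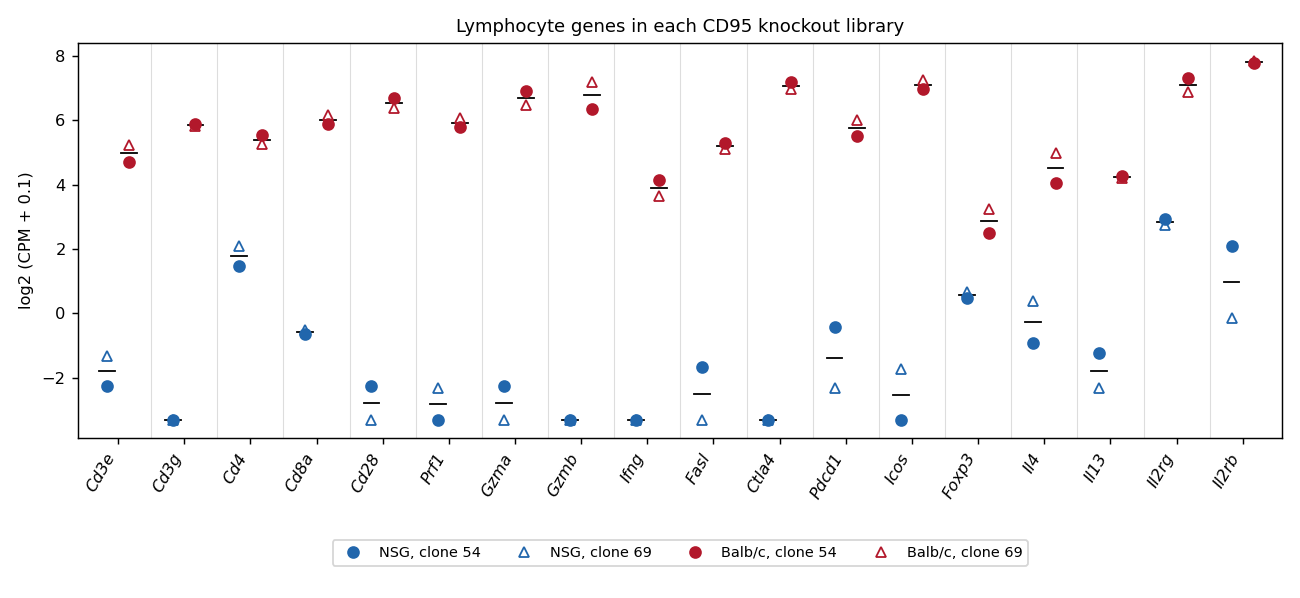
Levels of lymphocyte genes in the 4 CD95 knockout libraries: the vertical axis is log2 of CPM plus 0.1, circles are clone 54, triangles clone 69, blue NSG, red Balb/c, and black bars the mean of the 2 log2 values. For every gene shown both Balb/c points lie above both NSG points, and Ctla4, Cd3g, Gzmb and Ifng sit on the floor of the plot in NSG because they had 0 counts.

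Receptors that restrain or boost activated T cells were all higher in Balb/c. All 16 checkpoint and costimulatory genes passed in that direction (median 4.39). Ctla4 (ENSMUSG00000026011; chromosome 1, 60887000 to 60915832 in GRCm38), an inhibitory receptor, had 0 counts in NSG and 145 and 125 CPM in Balb/c and was at least 881-fold higher. Its costimulatory relatives at the same locus were Icos, 1318-fold higher (counting interval 365 to 10884), and Cd28 (chromosome 1, 60716800 to 60773359), 1842-fold higher (counting interval 330.3 to 72768). Pdcd1, which encodes PD-1, was at 0.642 and 0.0994 CPM in NSG and 45.2 and 64.3 CPM in Balb/c (log2 fold change 7.20, SE 0.73, edgeR adjusted p-value 0.000635). All of these receptors were thus under 1 CPM in NSG.

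The ligands of PD-1 were already read in NSG. Cd274, which encodes PD-L1 and is also made by tumor cells and macrophages, was at 177 and 60.3 CPM in NSG and 442 and 946 CPM in Balb/c (log2 fold change 2.55, SE 0.53, edgeR adjusted p-value 0.00976, and 0.0521 with the clone as a block). Pdcd1lg2, the second ligand, was at 2.57 and 1.29 CPM in NSG and 201 and 68.4 CPM in Balb/c (log2 fold change 6.13, SE 0.62, edgeR adjusted p-value 0.000642). The clones were ordered oppositely for the ligands in Balb/c, with Cd274 higher in clone 69 and Pdcd1lg2 higher in clone 54. Havcr2, which macrophages also express, was the member with the smallest rise, 2.53-fold, at 39.5 and 37.2 against 98.0 and 95.9 CPM. Lag3 and Tigit, inhibitory receptors of T and NK cells, were 11.5-fold and 15.3-fold higher. Btla (log2 fold change 2.20, SE 0.67, edgeR adjusted p-value 0.0397, and 0.0989 with the clone as a block) lost the call with the block and without clone 54 in NSG, clone 69 in NSG or clone 54 in Balb/c.

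Helper T cell genes of the type 2 kind were among those that rose. Of 12 tested genes of regulatory and helper T cells, 8 were higher. Foxp3, the factor that defines regulatory T cells, was at 1.28 and 1.49 CPM in NSG and 5.50 and 9.34 CPM in Balb/c (log2 fold change 2.40, SE 0.37, edgeR adjusted p-value 0.00292), and Il2ra, their high-affinity interleukin-2 receptor chain, at 0.749 and 0.398 CPM in NSG and 33.2 and 42.7 CPM in Balb/c (log2 fold change 6.04, SE 0.50, edgeR adjusted p-value 0.000359). The type 2 cytokines Il4, Il5 and Il13 were at 0.428 and 1.19 against 16.4 and 31.5 CPM, 0.107 and 0.199 against 6.35 and 4.08 CPM and 0.321 and 0.0994 against 19.3 and 18.3 CPM, NSG against Balb/c, and all 3 passed (adjusted p-values 0.000728, 0.00212 and 0.000382). Il21, a cytokine of helper T cells that act on B cells, had 0 counts in NSG and was at least 17.1-fold higher. Il17a and Il2 were too low to be tested, at no more than 0.635 CPM. The anti-inflammatory cytokine Il10, which macrophages also make, overlapped between hosts at 26.0 and 12.1 CPM in NSG and 22.4 and 16.8 CPM in Balb/c (log2 fold change 0.05, SE 0.38, edgeR adjusted p-value 0.940).

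Among 8 genes of the interleukin receptors that use the common chain, 5 were higher. Beside Il2rg itself these were Il2rb, 91.7-fold higher at 4.17 and 0.796 against 221 and 230.3 CPM, Il7r, 7.39-fold higher at 17.98 and 12.1 against 104 and 118 CPM, Il21r and Il4ra. Il4ra (log2 fold change 0.64, SE 0.21, edgeR adjusted p-value 0.0496, and 0.145 with the clone as a block) was only 1.56-fold higher and lost the call with the block and without clone 54 in NSG, clone 69 in NSG or clone 54 in Balb/c. Jak3, the kinase bound to the common chain, was at 61.3 and 84.5 CPM in NSG and 76.1 and 69.7 CPM in Balb/c and did not pass.

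B cell genes stayed low in both hosts. Of 11 tested genes, 3 were higher and 8 did not pass (median 3.12, or 2.28 with bounds), and the summed level was 6.42 and 6.76 CPM in NSG and 59.0 and 45.1 CPM in Balb/c. Cd22, a lectin of B cells and some other leukocytes, was at 3.75 and 3.38 CPM in NSG and 45.6 and 20.4 CPM in Balb/c (log2 fold change 3.21, SE 0.54, edgeR adjusted p-value 0.00415) and was the only one of the 3 whose call held without each knockout library. Ms4a1 and Cd79a passed at 0 and 0.0994 against 1.80 and 2.04 CPM and 0.321 and 0.298 against 1.59 and 4.01 CPM. Of these, Ms4a1 lost the call without any 1 of the 4 libraries and Cd79a without any but clone 54 in Balb/c. Other settings gave other counts here, namely 6 of the list's genes higher with DESeq2, with no filter or with the 4 knockout libraries alone, and 1 without either NSG knockout library or without clone 69 in Balb/c. The wild-type libraries share the filter, the scaling and the spread of this fit, and without parental 4T1 in Balb/c 6 passed and without vCas9 4T1 in Balb/c 8. The count was 4 with the block and 7 with the crossed pairing of clones.

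Interferon gamma is known to induce a set of genes through promoter elements called GAS, and through Irf1, which binds sites close to the ISRE bound in the type I interferon response. It also induces Ciita, the coactivator that assembles on the X and Y boxes of class II promoters. The promoters of 4 members of these lists that rose and of 1 type I target that did not pass are shown because the lists moved apart in the data given next. The windows run from 250 bases before to 50 after the RefSeq start in GRCm38.p6, 5′ to 3′ on the gene's strand, and come from the reference strain rather than from either host. Capitals mark, on either strand, the Y box CTGATTGG in H2-Aa and H2-Eb1, GAS as TTCNNNGAA and ISRE as GAAANNGAAA in Gbp5 and Igtp, and overlapping ISRE copies in Isg15.
H2-Aa (chr17:34287774-34288073, - strand): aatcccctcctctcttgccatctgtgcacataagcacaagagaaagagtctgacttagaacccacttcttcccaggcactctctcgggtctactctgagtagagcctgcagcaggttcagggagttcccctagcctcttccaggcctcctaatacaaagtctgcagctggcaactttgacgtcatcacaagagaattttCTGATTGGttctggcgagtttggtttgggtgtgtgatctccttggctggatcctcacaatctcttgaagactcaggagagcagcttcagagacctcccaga
H2-Eb1 (chr17:34305617-34305916, + strand): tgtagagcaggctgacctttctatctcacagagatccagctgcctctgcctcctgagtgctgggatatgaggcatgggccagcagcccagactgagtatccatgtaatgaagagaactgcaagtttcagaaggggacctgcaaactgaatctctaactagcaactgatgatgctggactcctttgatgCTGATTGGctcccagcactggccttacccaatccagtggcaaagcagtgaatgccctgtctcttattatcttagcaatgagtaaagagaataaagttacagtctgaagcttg
Gbp5 (chr3:142496684-142496983, + strand): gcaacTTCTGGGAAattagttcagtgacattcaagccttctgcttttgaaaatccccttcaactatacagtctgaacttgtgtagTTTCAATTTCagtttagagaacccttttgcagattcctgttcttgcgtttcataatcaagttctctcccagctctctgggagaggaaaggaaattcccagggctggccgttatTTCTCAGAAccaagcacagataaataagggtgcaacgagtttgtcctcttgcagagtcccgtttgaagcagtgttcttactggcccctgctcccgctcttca
Igtp (chr11:58199306-58199605, + strand): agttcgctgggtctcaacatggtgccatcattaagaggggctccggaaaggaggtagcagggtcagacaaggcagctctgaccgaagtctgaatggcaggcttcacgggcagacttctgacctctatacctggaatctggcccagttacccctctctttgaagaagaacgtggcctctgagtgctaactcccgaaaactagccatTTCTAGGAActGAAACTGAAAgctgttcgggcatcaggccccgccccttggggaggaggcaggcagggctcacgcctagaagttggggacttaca
Isg15 (chr4:156200769-156201068, - strand): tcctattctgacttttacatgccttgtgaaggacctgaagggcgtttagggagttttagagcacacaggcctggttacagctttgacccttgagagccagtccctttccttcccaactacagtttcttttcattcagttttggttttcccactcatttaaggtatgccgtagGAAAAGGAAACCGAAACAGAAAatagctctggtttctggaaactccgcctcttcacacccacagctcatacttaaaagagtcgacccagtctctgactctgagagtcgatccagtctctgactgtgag

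Of 32851 promoters of this length, 8.30% held the GAS letters, 3.44% the ISRE letters and 4.10% the Y box letters. Among the interferon gamma targets, 9 of 15 had a promoter in the table, of which 3 held GAS and 7 held ISRE. Among the type I targets, 10 of 14 had one, of which 2 held GAS and 5 held ISRE. Of the class II list, 7 of 10 had one, of which 3 (H2-Aa, H2-Eb1 and H2-Oa) held the Y box. These matches describe letters in a window and are not binding sites.

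Of 15 interferon gamma targets, 14 were higher in Balb/c, with a median of 2.58. Irf1 was at 128 and 88.7 CPM in NSG and 516 and 949.9 CPM in Balb/c (log2 fold change 2.76, SE 0.34, edgeR adjusted p-value 0.00134). Gbp5 and Igtp, GTPases of defense against intracellular pathogens whose promoters are shown above, were 7.88-fold higher at 15.9 and 13.03 against 87.1 and 141 CPM and 8.68-fold higher at 21.3 and 14.7 against 136 and 176 CPM. Their relative Gbp4 was at 15.4 and 10.8 CPM in NSG and 302 and 213 CPM in Balb/c (log2 fold change 4.29, SE 0.29, edgeR adjusted p-value 0.000252). The hosts did not overlap for any of these genes. Of the chemokines that draw in activated T cells through Cxcr3, Cxcl9 was at 2.57 and 1.39 CPM in NSG and 185 and 53.2 CPM in Balb/c (log2 fold change 5.91, SE 0.77, edgeR adjusted p-value 0.00159), 60.3-fold higher, and Cxcl11 at 1.07 and 0.597 against 14.4 and 9.56 CPM. Cxcl10, the third, was at 28.8 and 18.1 CPM in NSG and 47.2 and 42.5 CPM in Balb/c (log2 fold change 0.94, SE 0.27, edgeR adjusted p-value 0.0343, and 0.0683 with the clone as a block), 1.91-fold higher, and lost the call without clone 69 in NSG, without clone 54 in Balb/c and without clone 69 in Balb/c. Nos2, the inducible nitric oxide synthase, was 5.21-fold higher, and Socs1, which restrains the pathway, 6.47-fold higher. Ido1, a tryptophan-degrading enzyme, was at 19.8 and 2.78 CPM in NSG and 21.8 and 110.1 CPM in Balb/c (edgeR adjusted p-value 0.123) and did not pass.

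Type I interferon targets did not move with them. Of 14 genes, 0 were higher and 1 was lower, with a median of -0.21. Isg15 was at 70.3 and 20.8 CPM in NSG and 22.7 and 76.4 CPM in Balb/c (log2 fold change 0.12, SE 0.65, edgeR adjusted p-value 0.910), Ifit1 at 69.3 and 23.5 CPM in NSG and 21.9 and 30.3 CPM in Balb/c (log2 fold change -0.83, SE 0.50, edgeR adjusted p-value 0.242) and Mx1, a classical antiviral marker of the response, at 16.2 and 8.55 CPM in NSG and 15.3 and 10.7 CPM in Balb/c (log2 fold change 0.08, SE 0.50, edgeR adjusted p-value 0.920). In each case the hosts overlapped, and for Isg15 the high libraries were clone 54 in NSG and clone 69 in Balb/c. Oasl2 was lower at 171 and 68.0 CPM in NSG and 45.3 and 42.4 CPM in Balb/c (log2 fold change -1.45, SE 0.40, edgeR adjusted p-value 0.0276, and 0.0666 with the clone as a block) and lost the call without clone 54 in NSG, without clone 54 in Balb/c and without clone 69 in Balb/c. Without clone 54 in NSG, 2 of the 14 passed as higher and 0 as lower, and without clone 69 in NSG 2 passed as lower.

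Genes of antigen presentation to CD8 T cells were higher in Balb/c. Of 12 class I presentation genes, 11 passed as higher (median 1.56). The invariant chain B2m was at 1172 and 677 CPM in NSG and 3151 and 2243 CPM in Balb/c (log2 fold change 1.54, SE 0.35, edgeR adjusted p-value 0.0131) and lost the call without clone 69 in NSG. The heavy chains H2-K1 and H2-D1 were 4.21-fold and 2.98-fold higher, at 407 and 314 against 1744 and 1287 CPM and 1044 and 848 against 3206 and 2431 CPM. Host differences in H2 alleles, described with the class II genes below, may enter these values, and their part was not tested. Tap1, which moves peptides into the endoplasmic reticulum, was 5.82-fold higher at 49.0 and 34.4 against 243 and 242 CPM (log2 fold change 2.54, SE 0.25, edgeR adjusted p-value 0.000610), and the immunoproteasome subunit Psmb9 4.61-fold higher. Nlrc5, the class I coactivator, was 3.30-fold higher at 60.2 and 57.4 against 164 and 225 CPM. Calr, a general chaperone of the endoplasmic reticulum, was at 747 and 771 against 1144 and 724 CPM and did not pass.

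Genes of antigen presentation to CD4 T cells showed the larger change. All 10 class II genes were higher (median 3.50), and the summed level was 891 and 902 CPM in NSG and 14010.1 and 5947 CPM in Balb/c. H2-Ab1 was at 166 and 168 CPM in NSG and 2487 and 987 CPM in Balb/c (log2 fold change 3.38, SE 0.42, edgeR adjusted p-value 0.00133), H2-Aa at 209.7 and 199 CPM in NSG and 3353 and 1404 CPM in Balb/c (log2 fold change 3.54, SE 0.40, edgeR adjusted p-value 0.000991) and H2-Eb1 at 130.1 and 136 CPM in NSG and 2268 and 950.2 CPM in Balb/c (log2 fold change 3.60, SE 0.40, edgeR adjusted p-value 0.000942). In all 3 the NSG clones were nearly equal and clone 54 in Balb/c was above clone 69. Because H2 alleles differ between NOD and Balb/c mice and reads of other alleles can align less well, less polymorphic members of the pathway are given beside them, and the part of alignment in the H2 values was not tested. Cd74, the invariant chain, was 11.3-fold higher at 337 and 336 against 5264 and 2336 CPM, and the coactivator Ciita 7.16-fold higher at 11.9 and 12.03 against 120.2 and 50.9 CPM. H2-Ea-ps (chromosome 17, 34341959 to 34344645), the E alpha chain that NOD mice are known not to express, had 0 and 1 counts in NSG and was at 1577 and 644 CPM in Balb/c. It was named after its values were seen, and it was 22989-fold higher (counting interval 4126 to 908045). H2-Oa and H2-Ob, the modulators of class II peptide loading, passed at no more than 4.55 CPM, and H2-Oa lost the call without clone 54 in NSG and H2-Ob without any library but clone 69 in Balb/c.

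**Figure D3:**
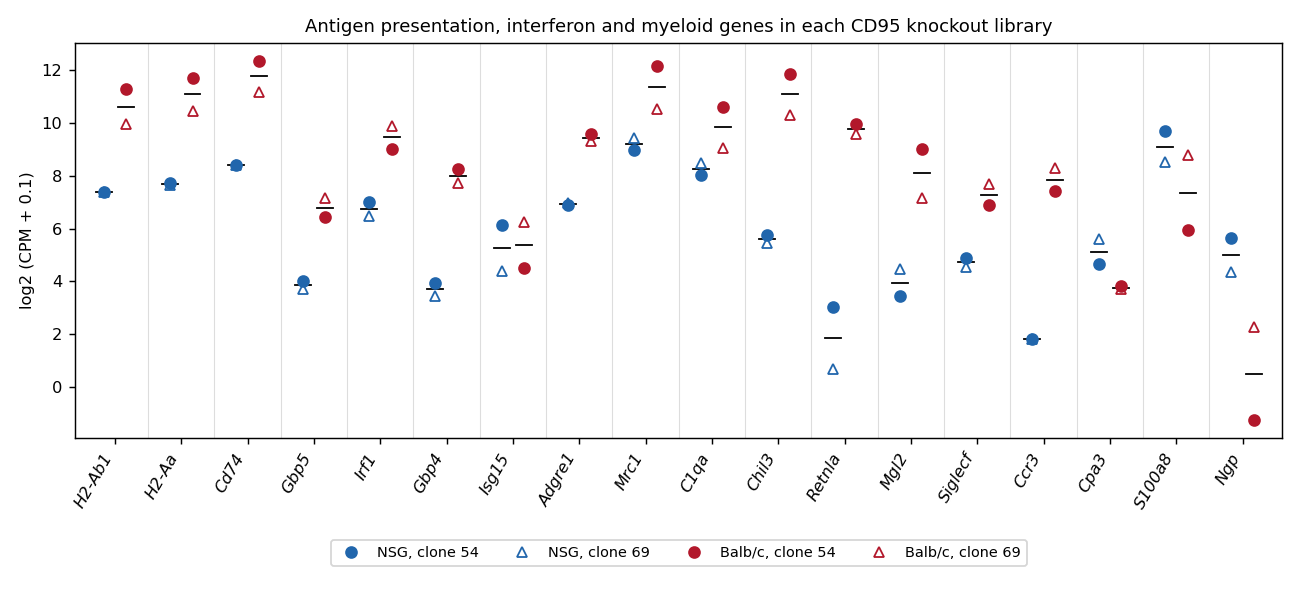
Levels of antigen presentation, interferon and myeloid genes in the 4 CD95 knockout libraries, on the axis and with the symbols of the lymphocyte plot. Class II, Chil3, Retnla, Mgl2 and Ccr3 are higher in both Balb/c libraries, Isg15 and S100a8 overlap between hosts, and clone 54 lies above clone 69 in Balb/c for class II, Mrc1, C1qa and Chil3 and below it for S100a8 and Ngp.

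Macrophage genes, present in both hosts, were higher in Balb/c, more so in clone 54. Of 17 genes, 13 were higher and 4 did not pass (median 1.63), and the summed level was 5207 and 5635 CPM in NSG and 23746 and 11336 CPM in Balb/c. Adgre1, the F4/80 antigen, was at 119 and 126 CPM in NSG and 761 and 631 CPM in Balb/c (log2 fold change 2.51, SE 0.22, edgeR adjusted p-value 0.000426), a 5.69-fold rise. Csf1r, the receptor for the macrophage growth factor, was at 343 and 428 CPM in NSG and 1282 and 737 CPM in Balb/c (log2 fold change 1.39, SE 0.30, edgeR adjusted p-value 0.0115, and 0.0501 with the clone as a block), Cd68 at 122 and 115 CPM in NSG and 478 and 255 CPM in Balb/c (log2 fold change 1.63, SE 0.28, edgeR adjusted p-value 0.00468), and the integrin Itgam at 440.1 and 326 CPM in NSG and 1121 and 1352 CPM in Balb/c (log2 fold change 1.69, SE 0.25, edgeR adjusted p-value 0.00251). Genes of resident macrophages were spread between the Balb/c clones, with the mannose receptor Mrc1 at 503 and 694 CPM in NSG and 4569 and 1494 CPM in Balb/c (log2 fold change 2.34, SE 0.49, edgeR adjusted p-value 0.00964, and 0.0544 with the clone as a block) and the complement gene C1qa at 261 and 358 CPM in NSG and 1567 and 534 CPM in Balb/c (log2 fold change 1.76, SE 0.45, edgeR adjusted p-value 0.0210, and 0.0900 with the clone as a block). Lyz2 was at 1462 and 1196 CPM in NSG and 5122 and 2506 CPM in Balb/c (log2 fold change 1.52, SE 0.35, edgeR adjusted p-value 0.0151). In each of these genes clone 54 in Balb/c was the highest library except for Itgam. With the block 4 genes passed, namely Adgre1, Cd68, Lyz2 and Itgam. Csf1r and Mrc1 lost the call without clone 54 in NSG, C1qa without either NSG library and Lyz2 without clone 69 in NSG. The count was 5 without clone 54 in NSG, 7 without clone 69 in NSG, 11 without clone 54 in Balb/c and 15 without clone 69 in Balb/c. Fcgr1, an activating antibody receptor, overlapped between hosts at 59.4 and 88.6 CPM in NSG and 114 and 76.2 CPM in Balb/c (log2 fold change 0.37, SE 0.31, edgeR adjusted p-value 0.399). The epithelial genes moved opposite to these between the Balb/c clones (their summed levels are given above), and their part in the result was not tested.

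Genes of alternatively activated macrophages, the state that interleukins 4 and 13 induce, showed larger changes than the macrophage list. All 13 tested genes were higher, with a median of 3.99 and a summed level of 656 and 547 CPM in NSG and 15121 and 7124 CPM in Balb/c. Chil3, a secreted chitinase-like protein, was at 53.9 and 43.5 CPM in NSG and 3724 and 1268 CPM in Balb/c (log2 fold change 5.68, SE 0.56, edgeR adjusted p-value 0.000607), 51.3-fold higher. Retnla, which encodes a secreted resistin-like protein, was at 8.03 and 1.49 CPM in NSG and 986 and 757 CPM in Balb/c (log2 fold change 7.53, SE 0.70, edgeR adjusted p-value 0.000501), 184-fold higher. The Balb/c libraries were far above the NSG libraries for both, and clone 54 was above clone 69.

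The other members rose by different amounts. The lectin Mgl2 was at 10.8 and 22.0 against 523 and 143 CPM and Clec10a, its close relative, at 9.63 and 10.2 against 89.2 and 59.7 CPM, and reads of these related genes may be shared. Alox15, a lipoxygenase also known from eosinophils, was at 2.57 and 1.29 against 395 and 706 CPM (log2 fold change 8.16, SE 0.53, edgeR adjusted p-value 0.000238) and was the member in which clone 69 was higher by the widest margin. Rnase2a and Ear2, ribonucleases of a family first known from eosinophils, were at 0.642 and 0.199 against 639.9 and 219 CPM and 4.28 and 2.39 against 37.9 and 22.5 CPM, with values uncertain among near-identical copies. The chemokine Ccl24, which attracts eosinophils, was at 3.10 and 4.38 CPM in NSG and 70.6 and 68.1 CPM in Balb/c (log2 fold change 4.21, SE 0.24, edgeR adjusted p-value 0.000186), and Ccl8 at 159.7 and 110.4 against 2946 and 765 CPM. Ccl17 lost the call with the block (adjusted p-value 0.0655) and without any library but clone 69 in Balb/c. Ccl22 lost it without clone 69 in NSG or clone 54 in Balb/c, and the fatty acid receptor Cd36 lost it without clone 69 in NSG.

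Eosinophil and mast cell genes moved in opposite directions. Of 14 genes, 5 were higher and 5 lower, and the 5 that were higher are all known from eosinophils. Siglecf, a lectin of eosinophils and some macrophages, was at 29.5 and 23.4 CPM in NSG and 118 and 208 CPM in Balb/c (log2 fold change 2.62, SE 0.42, edgeR adjusted p-value 0.00342). Ccr3, the receptor for Ccl24 and eotaxins, was at 3.42 and 3.38 CPM in NSG and 169.9 and 314 CPM in Balb/c (log2 fold change 6.15, SE 0.38, edgeR adjusted p-value 0.000238), 70.9-fold higher. Prg2, the major basic protein, was at 0.107 and 0.696 against 16.6 and 58.4 CPM, Epx, the eosinophil peroxidase, was at least 16.7-fold higher, and the interleukin-5 receptor gene Il5ra was 174-fold higher (counting interval 59.2 to 844). All 5 kept the call with the block and without each knockout library, and clone 69 was above clone 54 for each in Balb/c.

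The 5 that were lower encode mast cell proteases. Cpa3 was at 24.8 and 48.1 CPM in NSG and 14.1 and 12.9 CPM in Balb/c (log2 fold change -1.43, SE 0.33, edgeR adjusted p-value 0.0141, and 0.0538 with the clone as a block), Mcpt4 at 21.4 and 38.3 CPM in NSG and 9.20 and 8.75 CPM in Balb/c (log2 fold change -1.73, SE 0.35, edgeR adjusted p-value 0.00844) and Cma1 at 20.5 and 39.0 CPM in NSG and 11.2 and 10.1 CPM in Balb/c (log2 fold change -1.48, SE 0.33, edgeR adjusted p-value 0.0127). Mcpt2 and Tpsb2 were at 8.56 and 51.9 against 2.91 and 2.33 CPM and 23.3 and 59.97 against 13.5 and 11.4 CPM (adjusted p-values 0.0143 and 0.0170, and 0.0571 and 0.0539 with the block). Clone 69 in NSG had the highest level of each, and without it 0 of the 5 passed. Mcpt2 also lost the call without either Balb/c library and Tpsb2 without clone 69 in Balb/c. With the block 2 passed, Mcpt4 and Cma1. Kit, the mast cell growth factor receptor, was at 36.1 and 35.9 against 21.001 and 41.5 CPM and did not pass.

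Of 12 tested dendritic cell genes, 10 were higher and 1 lower (median 2.38). Flt3, the growth factor receptor of the lineage, was at 2.68 and 3.08 CPM in NSG and 18.1 and 16.8 CPM in Balb/c (log2 fold change 2.60, SE 0.31, edgeR adjusted p-value 0.00120). Xcr1 and Clec9a, markers of the cross-presenting subset, were 4.63-fold and 3.43-fold higher, at 1.61 and 2.29 against 10.2 and 7.95 CPM and 0.963 and 2.59 against 6.24 and 6.05 CPM, and Siglech, a plasmacytoid marker, was 11.4-fold higher. Clec9a lost the call without clone 54 in NSG, and Batf3 and Ccr7 lost it without clone 69 in NSG. Zbtb46, a factor of conventional dendritic cells, was at 9.52 and 10.1 against 12.3 and 10.9 CPM and did not pass. Fscn1, an actin bundler that mature dendritic cells share with carcinoma and stromal cells, was lower at 98.8 and 148 CPM in NSG and 44.1 and 27.7 CPM in Balb/c (log2 fold change -1.78, SE 0.30, edgeR adjusted p-value 0.00411).

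Neutrophil genes were not uniformly changed. Of 17 tested genes, 1 was higher, 4 were lower and 12 did not pass (median -0.85). S100a8 was at 819 and 367 CPM in NSG and 62.1 and 437 CPM in Balb/c (log2 fold change -1.25, SE 0.77, edgeR adjusted p-value 0.252), S100a9 at 1496 and 735 CPM in NSG and 147 and 1037 CPM in Balb/c (log2 fold change -0.91, SE 0.76, edgeR adjusted p-value 0.391) and Ly6g, the marker of mouse neutrophils, at 5.99 and 1.69 CPM in NSG and 0.317 and 3.14 CPM in Balb/c (log2 fold change -1.20, SE 0.92, edgeR adjusted p-value 0.354). For all 3 the lowest library was clone 54 in Balb/c, while clone 69 in Balb/c lay between the NSG libraries. The granule genes Ngp, at 49.2 and 20.2 CPM in NSG and 0.317 and 4.67 CPM in Balb/c (log2 fold change -3.88, SE 0.87, edgeR adjusted p-value 0.0130, and 0.0623 with the clone as a block), and Lcn2, at 221 and 66.3 CPM in NSG and 10.95 and 41.4 CPM in Balb/c (log2 fold change -2.46, SE 0.68, edgeR adjusted p-value 0.0290, and 0.123 with the clone as a block), were lower, as were Fpr1 and Mmp9. Mmp9 alone kept the call with the block, and it lost the call without any library but clone 54 in NSG. Ngp, Lcn2 and Fpr1 lost it without clone 54 in NSG, and Lcn2 and Fpr1 also without clone 54 in Balb/c. Retnlg, a resistin-like gene of neutrophils, was higher at 63.8 and 26.6 CPM in NSG and 124 and 451 CPM in Balb/c (log2 fold change 2.67, SE 0.62, edgeR adjusted p-value 0.0151, and 0.0831 with the clone as a block). The count of lower genes was 1 without clone 54 in NSG, 3 without clone 69 in NSG, 1 without clone 54 in Balb/c and 11 without clone 69 in Balb/c. It was 2 without either wild-type NSG library. Retnlg lost its call without clone 69 in NSG.

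Chemokine ligand genes moved both ways. Of 18 further ligand genes, 5 were higher and 4 lower (median -0.24). Ccl5, made by activated T cells and other cells, was at 2.14 and 1.19 CPM in NSG and 91.6 and 99.2 CPM in Balb/c (log2 fold change 5.84, SE 0.48, edgeR adjusted p-value 0.000359), 57.3-fold higher, and the macrophage chemokines Ccl6 and Ccl9 were 5.71-fold and 3.06-fold higher, at 601 and 328 against 2482 and 2820.3 CPM and 281 and 209.5 against 901 and 599.6 CPM. Cxcl14, a chemokine of epithelium and fibroblasts, was at 259 and 363 CPM in NSG and 19.1 and 16.1 CPM in Balb/c (log2 fold change -4.14, SE 0.31, edgeR adjusted p-value 0.000296), 17.6-fold lower, and Cxcl13, which attracts B cells, 10.7-fold lower at 10.6 and 9.65 against 1.38 and 0.438 CPM. Cxcl1, a neutrophil attractant, was lower at 685 and 379 CPM in NSG and 236 and 192 CPM in Balb/c (log2 fold change -1.31, SE 0.31, edgeR adjusted p-value 0.0164) but lost the call without clone 54 in NSG or clone 69 in Balb/c. Ccl2, which attracts monocytes, and Ccl3 overlapped between hosts at 313 and 183 against 245 and 118 CPM and 325 and 59.3 against 155 and 540.1 CPM.

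Of 10 chemokine receptor genes, 4 were higher, in all 4 leave-one-out fits, among them Cxcr4 at 145 and 104 against 427 and 495 CPM, Cxcr6, a receptor of resident T cells, at 2.25 and 2.29 against 66.5 and 73.7 CPM, and Ccr4, 33.5-fold higher (counting interval 11.3 to 164). Cxcr3, the receptor of Cxcl9 and its relatives, was at 9.84 and 8.55 CPM in NSG and 13.6 and 10.1 CPM in Balb/c (log2 fold change 0.37, SE 0.32, edgeR adjusted p-value 0.423) and did not pass.

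Among 16 inflammatory cytokines and growth factors, 4 were lower and 1 higher. Tslp, an epithelial cytokine that promotes type 2 responses, was at 78.0 and 17.8 CPM in NSG and 2.06 and 2.77 CPM in Balb/c (log2 fold change -4.31, SE 0.72, edgeR adjusted p-value 0.00395), 19.9-fold lower, and Csf2 and Csf3, growth factors of granulocytes and macrophages, were at 11.4 and 6.07 against 2.38 and 2.55 CPM and 42.5 and 15.9 against 4.13 and 8.32 CPM. Il12b, a subunit of interleukins 12 and 23, was higher at 0.107 and 0.398 CPM in NSG and 5.92 and 2.99 CPM in Balb/c (log2 fold change 4.08, SE 0.78, edgeR adjusted p-value 0.00696). Csf2 lost the call without clone 54 in NSG, Csf3 with the block (adjusted p-value 0.0639) and without clone 54 of either host, and Il11 in all of these fits and without clone 69 of either host. Il1b, Il1a and Il6 overlapped between hosts, Il1b at 3973 and 1723 against 752 and 2697 CPM, and the count of lower genes was 2 with the block, 1 without clone 54 in NSG and 7 without clone 69 in Balb/c. Without clone 54 in Balb/c the count of higher genes was 3.

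Of 20 death receptor signaling genes, 6 were higher, 2 lower and 12 did not pass, against 15.7% higher and 15.4% lower of all genes (median 0.50). The 4 knockout libraries alone left 3 higher and 0 lower. The adaptor Fadd was at 10.1 and 8.65 CPM in NSG and 10.6 and 7.88 CPM in Balb/c (log2 fold change -0.02, SE 0.31, edgeR adjusted p-value 0.974), the initiator Casp8 at 79.9 and 83.4 CPM in NSG and 107 and 98.5 CPM in Balb/c (log2 fold change 0.33, SE 0.15, edgeR adjusted p-value 0.125) and Cflar, which blocks caspase-8 at the receptor, at 215 and 167 CPM in NSG and 235 and 293 CPM in Balb/c (log2 fold change 0.47, SE 0.21, edgeR adjusted p-value 0.121). The hosts overlapped for Fadd but not for Casp8 and Cflar.

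The members that rose came from several steps of cell death. Ripk1, a kinase at the branch between survival and necroptosis, was at 65.2 and 64.9 CPM in NSG and 129 and 148 CPM in Balb/c (log2 fold change 1.09, SE 0.16, edgeR adjusted p-value 0.00231), 2.13-fold higher, and Tnfsf10, the ligand TRAIL, 3.27-fold higher at 7.28 and 8.06 against 27.2 and 23.0 CPM. Ripk3, Bax and Mcl1 also passed as higher, and of these Ripk3 and Bax lost the call without clone 54 in NSG and Mcl1 without clone 69 in NSG and with the block (adjusted p-value 0.0616). Tnfrsf10b, the mouse TRAIL receptor, was lower at 24.2 and 20.9 CPM in NSG and 7.25 and 14.4 CPM in Balb/c (log2 fold change -1.07, SE 0.34, edgeR adjusted p-value 0.0458, and 0.0777 with the clone as a block), as was the necroptosis effector Mlkl (log2 fold change -0.71, SE 0.20, edgeR adjusted p-value 0.0310, and 0.0933 with the clone as a block). Both calls were lost with the block and without either NSG library, and further without clone 54 in Balb/c for Tnfrsf10b and without clone 69 in Balb/c for Mlkl. Without either wild-type NSG library 0 genes passed as lower, and without either wild-type Balb/c library 1.

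Epithelial genes, which mark the carcinoma cells, did not separate the hosts as a group. Of 16 genes, 0 were higher and 1 was lower (median -0.25). Both Balb/c libraries lay below both NSG libraries for 5 of the 16, Epcam among them, and above for 0. Epcam was at 416 and 288 CPM in NSG and 45.2 and 228 CPM in Balb/c (log2 fold change -1.37, SE 0.73, edgeR adjusted p-value 0.190), Krt8 at 870.5 and 629.7 CPM in NSG and 156 and 1283 CPM in Balb/c (log2 fold change -0.06, SE 0.82, edgeR adjusted p-value 0.965) and its partner Krt18 at 709 and 555 CPM in NSG and 145 and 1069.8 CPM in Balb/c (log2 fold change -0.06, SE 0.77, edgeR adjusted p-value 0.964). Clone 54 in Balb/c was the lowest library for all 3 and clone 69 in Balb/c the highest for both keratins. Krt14, a basal keratin, was lower at 81.4 and 40.8 CPM in NSG and 7.62 and 16.6 CPM in Balb/c (log2 fold change -2.35, SE 0.51, edgeR adjusted p-value 0.0113), a call lost without clone 54 in NSG. Without clone 69 in Balb/c, 9 of the 16 passed as lower.

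Regulators of the epithelial-mesenchymal transition moved both ways, with 5 of 13 genes lower and 3 higher. The transcription factors Snai1, Snai2 and Twist1 were 3.11-fold, 3.38-fold and 5.21-fold lower, Twist1 at 15.2 and 20.9 CPM in NSG and 4.44 and 2.41 CPM in Balb/c (log2 fold change -2.38, SE 0.36, edgeR adjusted p-value 0.00283). Snai2 lost the call without clone 69 in NSG. Zeb2, a related factor that macrophages and T cells also express, was higher at 261 and 291 CPM in NSG and 739.7 and 824 CPM in Balb/c (log2 fold change 1.50, SE 0.21, edgeR adjusted p-value 0.00223), and Tgfb1 1.85-fold higher against 3.20-fold and 2.01-fold lower for Tgfb2 and Tgfb3. Vim, the mesenchymal intermediate filament, was at 1844 and 2313 CPM in NSG and 3175 and 1813 CPM in Balb/c and did not pass. Its hosts overlapped. Tgfb2 lost the call without clone 69 in NSG, which left 3 genes lower, and Tgfbi lost it with the block and without any library but clone 69 in Balb/c.

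Proliferation genes were lower in Balb/c. Of 19 cell cycle genes, 14 were lower and 1 higher, against 15.4% and 15.7% of all genes (median -1.30). Mki67, the Ki-67 antigen, was at 288 and 472 CPM in NSG and 177 and 134 CPM in Balb/c (log2 fold change -1.29, SE 0.26, edgeR adjusted p-value 0.00881, and 0.0495 with the clone as a block), Top2a, a topoisomerase of dividing cells, at 175 and 321 CPM in NSG and 129 and 72.7 CPM in Balb/c (log2 fold change -1.30, SE 0.35, edgeR adjusted p-value 0.0257, and 0.0929 with the clone as a block) and Ccnb1, the mitotic cyclin, at 21.6 and 34.7 CPM in NSG and 14.5 and 7.22 CPM in Balb/c (log2 fold change -1.37, SE 0.36, edgeR adjusted p-value 0.0240, and 0.0764 with the clone as a block). Clone 69 in NSG was the highest library for all 3 and clone 69 in Balb/c the lowest. Ccnd1, the cyclin of entry into the cycle, was at 170.5 and 215 CPM in NSG and 40.1 and 47.3 CPM in Balb/c (log2 fold change -2.14, SE 0.21, edgeR adjusted p-value 0.000624), 4.41-fold lower. The exception was Pcna, a clamp of DNA replication, at 83.8 and 92.8 CPM in NSG and 198 and 173 CPM in Balb/c (log2 fold change 1.07, SE 0.20, edgeR adjusted p-value 0.00593). The 4 knockout libraries alone left 5 genes of the list lower. With the block 7 genes passed as lower, and without clone 69 in NSG 6, without clone 69 in Balb/c 9, and without clone 54 of either host 14 in NSG and 15 in Balb/c.

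Of 9 tested histone genes, 3 were lower and 6 did not pass, and their near-identical copies make single members uncertain. Hist1h1b was lower at 45.0 and 102 against 33.3 and 14.005 CPM (log2 fold change -1.63, SE 0.46, edgeR adjusted p-value 0.0308, and 0.111 with the clone as a block), as was Hist2h3b at 10.2 and 26.0 against 7.25 and 2.33 CPM (log2 fold change -1.90, SE 0.59, edgeR adjusted p-value 0.0433, and 0.137 with the clone as a block). Hist1h1a, at 13.3 and 28.1 against 27.4 and 18.7 CPM, and Hist1h2ab, at 12.4 and 37.1 against 18.8 and 5.11 CPM, did not pass. Hist1h2ba, a testis-type member, was at 2.68 and 9.85 CPM in NSG and at 0 in Balb/c, at least 69.5-fold lower. Hist1h1b and Hist2h3b lost the call with the block and without clone 69 of either host, and without clone 54 in Balb/c 6 genes passed as lower. Without either wild-type NSG library 1 did.

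Of 15 glycolysis and hypoxia genes, 5 were higher and 1 lower, against 15.7% and 15.4% of all genes (median 0.45). Vegfa, the vascular growth factor, was at 273 and 260.3 CPM in NSG and 565 and 738 CPM in Balb/c (log2 fold change 1.29, SE 0.24, edgeR adjusted p-value 0.00598), 2.44-fold higher, and the glucose transporter Slc2a1 at 215 and 143 CPM in NSG and 283 and 429 CPM in Balb/c (log2 fold change 0.99, SE 0.27, edgeR adjusted p-value 0.0278, and 0.101 with the clone as a block), while hexokinase Hk2 overlapped at 329 and 206 against 288 and 355 CPM. Car9, a carbonic anhydrase widely used as a marker of hypoxia, was 7.54-fold lower at 49.2 and 28.1 CPM in NSG and 6.08 and 4.08 CPM in Balb/c (log2 fold change -2.91, SE 0.35, edgeR adjusted p-value 0.00116). The 4 knockout libraries alone left 1 gene of this list higher and 1 lower. With the block 2 genes were higher, Vegfa and Pfkp, and the count of higher genes was 2 without clone 69 of either host or without any 1 wild-type library. Of 15 respiratory chain genes 1 was higher, Ndufa1 at 27.4 and 22.1 against 45.3 and 39.2 CPM, a call lost without clone 69 in NSG. Of 16 ribosomal protein genes 1 was lower, Rps2 at 404 and 524 against 326 and 263 CPM, a call lost with the block (adjusted p-value 0.137), without clone 69 of either host and without any 1 wild-type library. Both Balb/c libraries lay above both NSG libraries for 9 of the 16 ribosomal protein genes and below for 2. With DESeq2, 2 of the 16 passed as higher and 1 as lower. Without clone 69 in Balb/c the list also had calls as higher. Rpl3, Rpl4 and Rpl5 were at 449.8 and 421 against 576 and 451 CPM, 889.7 and 842 against 992 and 803 CPM and 498 and 409 against 557 and 429 CPM and did not pass, nor did Ndufa4, Ndufb5 or Odc1, the first enzyme of polyamine synthesis, at 190.4 and 167 against 176 and 174 CPM.

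Stress response genes rose in part. Of 12 polyamine and amino acid stress genes, 4 were higher and 2 lower. Atf4, the factor of the integrated stress response, was at 227 and 171 CPM in NSG and 456 and 512 CPM in Balb/c (log2 fold change 1.28, SE 0.21, edgeR adjusted p-value 0.00370), and Sat1, which acetylates spermidine and spermine, at 224 and 168 CPM in NSG and 499.8 and 478 CPM in Balb/c (log2 fold change 1.32, SE 0.20, edgeR adjusted p-value 0.00275). Ddit3 and Chac1, targets of Atf4, also passed, but both lost the call without clone 69 in NSG and Chac1 with the block (adjusted p-value 0.0531). Srm and Myc were lower, at 23.4 and 32.9 against 18.5 and 11.9 CPM and 95.8 and 60.6 against 43.9 and 40.0 CPM. Both lost the call with the block (adjusted p-values 0.110 and 0.0622) and without clone 69 in Balb/c, and Srm without clone 69 in NSG and Myc without clone 54 of either host. Without any 1 wild-type library, 1 gene passed as lower.

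Genes of EGF signaling were lower in part. Of 9 genes, 3 were lower, 1 was higher and 5 did not pass, against 15.4% lower and 15.7% higher of all genes (median -0.62). Egfr was at 172 and 127 CPM in NSG and 52.3 and 33.7 CPM in Balb/c (log2 fold change -1.79, SE 0.29, edgeR adjusted p-value 0.00350), and its ligands Tgfa and Ereg were 8.86-fold and 4.09-fold lower, at 46.1 and 69.0 against 3.54 and 9.63 CPM and 32.5 and 14.7 against 5.82 and 5.69 CPM. All 3 held with the block and without each knockout library. Erbb2 and Erbb3 were at 49.4 and 40.1 against 5.50 and 22.0 CPM and 93.3 and 46.2 against 25.0 and 99.1 CPM and did not pass. The ligand Hbegf was higher (log2 fold change 0.76, SE 0.24, edgeR adjusted p-value 0.0431, and 0.0686 with the clone as a block) and lost the call without any library of the series but clone 54 in NSG and with total-count scaling.

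Genes of the stroma formed the other large group of decreases. Of 16 collagen and matrix genes, 13 were lower and 0 higher (median -1.94), and the summed level was 48134 and 44221 CPM in NSG and 17193 and 6112 CPM in Balb/c. The fibrillar collagen genes were at 4941 and 5626 CPM in NSG and 1663 and 509 CPM in Balb/c for Col1a1 (log2 fold change -2.28, SE 0.53, edgeR adjusted p-value 0.0147), at 5473 and 5355 CPM in NSG and 2655 and 771 CPM in Balb/c for Col1a2 (log2 fold change -1.66, SE 0.54, edgeR adjusted p-value 0.0497, and 0.0716 with the clone as a block) and at 20924 and 16776 CPM in NSG and 6080.1 and 2293 CPM in Balb/c for Col3a1 (log2 fold change -2.17, SE 0.53, edgeR adjusted p-value 0.0182). Fbn1, the fibrillin of elastic microfibrils, was at 2948 and 2161 CPM in NSG and 484 and 276 CPM in Balb/c (log2 fold change -2.75, SE 0.42, edgeR adjusted p-value 0.00289), 6.72-fold lower. Clone 69 in Balb/c was the lowest library for all 4, and both Balb/c libraries lay below both NSG libraries. The block kept 8 of the 13. Col1a1 lost the call without clone 69 in NSG, Col3a1 without clone 54 in NSG and Col1a2 without any library but clone 54 in Balb/c. Without clone 54 in NSG 7 genes passed, without clone 69 in NSG 4, without clone 54 in Balb/c 16 and without clone 69 in Balb/c 10, while 3 genes (Col5a1, Fbn1 and Sparc) passed each time. In this list 2 genes passed with the 4 knockout libraries alone, 6 without either wild-type NSG library and 8 without vCas9 4T1 in Balb/c.

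Fibroblast genes followed, with 8 of 14 lower and 0 higher (median -1.43). The growth factor receptors Pdgfra and Pdgfrb were at 282 and 252 CPM in NSG and 94.7 and 34.6 CPM in Balb/c (log2 fold change -2.04, SE 0.42, edgeR adjusted p-value 0.00946) and 80.0 and 119 CPM in NSG and 49.3 and 18.2 CPM in Balb/c (log2 fold change -1.55, SE 0.44, edgeR adjusted p-value 0.0319, and 0.0724 with the clone as a block). Thy1, a surface protein of fibroblasts and T cells, was at 197 and 150.4 CPM in NSG and 88.7 and 83.4 CPM in Balb/c (log2 fold change -1.01, SE 0.24, edgeR adjusted p-value 0.0161) and lost the call without clone 54 in NSG. Fap, the fibroblast activation protein, was at 59.1 and 43.2 CPM in NSG and 18.8 and 15.2 CPM in Balb/c (log2 fold change -1.58, SE 0.30, edgeR adjusted p-value 0.00633). Acta2, the smooth muscle actin of pericytes and myofibroblasts, was at 66.4 and 127 CPM in NSG and 47.6 and 19.6 CPM in Balb/c and did not pass. With the block 4 genes passed, and Pdgfrb lost the call without clone 69 of either host. The count was 4 without clone 54 in NSG, 6 without clone 69 in NSG, 9 without clone 54 in Balb/c and 3 without clone 69 in Balb/c.

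Matrix proteases differed by member. Mmp2 and Mmp3, made by fibroblasts, were 3.33-fold and 11.6-fold lower, at 689 and 519 against 244 and 118 CPM and 239 and 250.3 against 27.7 and 14.4 CPM, and Mmp2 lost the call without clone 54 in NSG. The macrophage elastase Mmp12 was at 345 and 81.5 CPM in NSG and 2284 and 1587 CPM in Balb/c (log2 fold change 3.18, SE 0.60, edgeR adjusted p-value 0.00643) and the collagenase Mmp13 at 39.2 and 28.3 CPM in NSG and 552 and 387 CPM in Balb/c (log2 fold change 3.80, SE 0.31, edgeR adjusted p-value 0.000349), both higher. Mmp10 was at 4.601 and 9.94 against 9.57 and 2.92 CPM and did not pass. The other 6 genes of the list did not pass either. The count of lower genes was 1 without clone 54 in NSG, 5 without clone 54 in Balb/c and 3 without clone 69 in Balb/c, where 3 were higher.

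**Figure D4:**
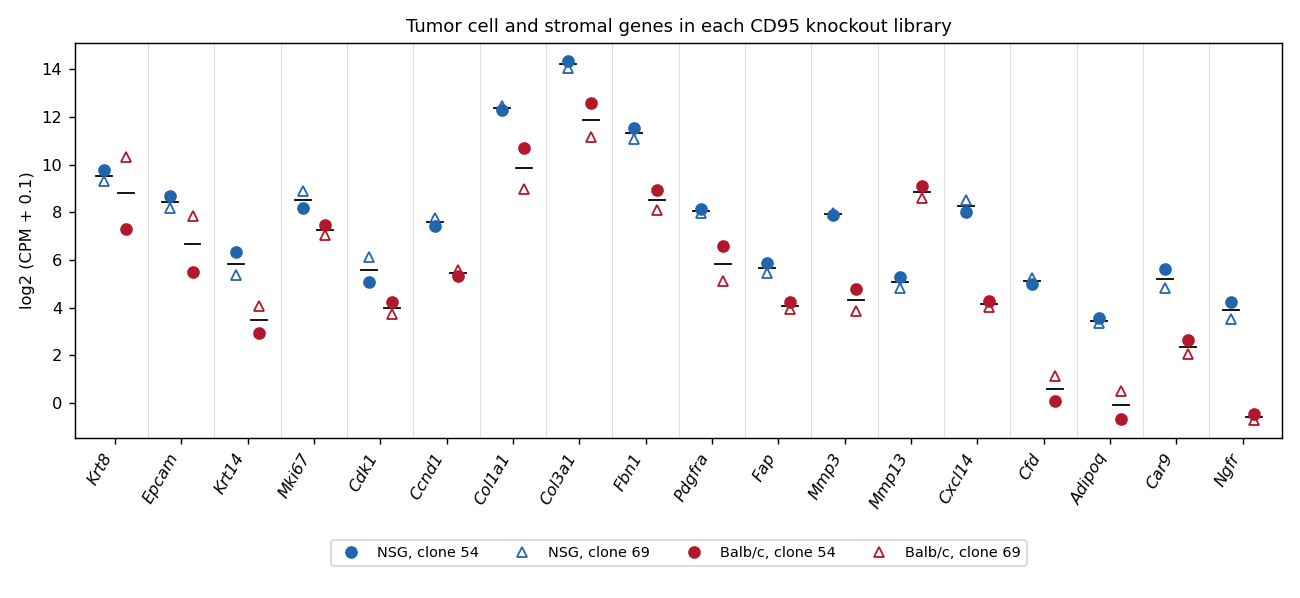
Levels of tumor cell and stromal genes in the 4 CD95 knockout libraries, on the axis and with the symbols of the lymphocyte plot. Keratin 8 (Krt8) spans 156 to 1283 CPM within Balb/c, the collagen and adipocyte genes shown are lower in both Balb/c libraries, and Mmp13 is higher in both. In the whole adipocyte list of 12 genes, both Balb/c libraries were below both NSG libraries for 6 and above for 4.

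Endothelial genes did not separate the hosts as a group. Of 14 genes, 1 was higher and 1 lower (median -0.06). Pecam1, which leukocytes also carry, was at 95.02 and 129 CPM in NSG and 274 and 221 CPM in Balb/c (log2 fold change 1.15, SE 0.30, edgeR adjusted p-value 0.0222) and lost the call without any library but clone 69 in Balb/c and with total-count scaling. Cdh5 and Kdr, which are restricted to endothelium, were at 75.1 and 137 against 80.4 and 84.5 CPM and 31.5 and 65.1 against 45.1 and 45.7 CPM and did not pass. Lyve1, a receptor of lymphatic endothelium and of some macrophages, was at 91.0 and 91.2 CPM in NSG and 15.4 and 16.8 CPM in Balb/c (log2 fold change -2.50, SE 0.44, edgeR adjusted p-value 0.00506), 5.65-fold lower with both clones nearly equal within each host.

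Adipocyte genes were lower in Balb/c for 6 of 12 members, and 2 were higher (median -1.62). Their summed level went the other way, at 446 and 350.3 CPM in NSG and 706 and 726 CPM in Balb/c, and Fabp4, Lpl and Cd36, which macrophages also express, made up most of it. Adipoq, the adiponectin gene, was at 11.7 and 10.1 CPM in NSG and 0.529 and 1.31 CPM in Balb/c (log2 fold change -3.59, SE 0.48, edgeR adjusted p-value 0.00168), Cfd, which encodes adipsin, at 32.0 and 37.4 CPM in NSG and 0.952 and 2.12 CPM in Balb/c (log2 fold change -4.53, SE 0.47, edgeR adjusted p-value 0.000721), and Plin1, the lipid droplet coat, 41.2-fold lower (counting interval 10.8 to 349.6). Fabp4 was at 119.8 and 87.4 CPM in NSG and 198 and 263 CPM in Balb/c and did not pass. The members that rose, Pparg and Cd36, are also expressed by macrophages, and both lost the call without clone 69 in NSG, as did Pparg without clone 69 in Balb/c and with the block (adjusted p-value 0.0518). Lep, the leptin gene, at under 1 CPM in every knockout library, passed as lower and lost the call without any 1 of the 4 knockout libraries and with the block (adjusted p-value 0.0764).

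Markers of other tissue in the dissected tumor were examined in the same way. Of 9 tested skeletal muscle genes 0 passed in either direction, although Acta1 ranged from 0.159 CPM in clone 54 to 15.03 CPM in clone 69 within Balb/c. Of 3 tested skin genes 1 was lower, Krt10 (log2 fold change -1.69, SE 0.47, edgeR adjusted p-value 0.0290, and 0.0686 with the clone as a block), a call lost without any knockout library but clone 54 in Balb/c, and without either wild-type NSG library or vCas9 4T1 in Balb/c. Of 8 tested mammary and milk genes 0 passed, and the milk genes Csn1s1 and Csn2 were under 1 CPM in all 4 libraries.

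Of 10 red blood cell and platelet genes, 2 were higher and 3 lower. Hbb-bs was at 1956 and 1090.0 CPM in NSG and 233 and 1082 CPM in Balb/c (log2 fold change -1.21, SE 0.62, edgeR adjusted p-value 0.174). Hbb-bt and Hba-a1 passed as lower, at 258 and 161 against 18.1 and 76.5 CPM and 1129.5 and 564 against 46.7 and 239 CPM, but lost the call with the block (adjusted p-values 0.0657 and 0.0764) and without clone 54 in NSG. Without clone 69 in Balb/c, 5 genes of the list passed as lower. Hba-a2 was 419-fold higher (counting interval 143 to 2034), and reads of Hba-a1 and Hba-a2 can be shared, so this pair of opposite calls is uncertain. Of 8 nerve genes, 2 were lower and 1 higher. Ngfr, the p75 neurotrophin receptor of Schwann cells and other stroma, was at 19.05 and 11.5 CPM in NSG and 0.635 and 0.511 CPM in Balb/c (log2 fold change -4.70, SE 0.57, edgeR adjusted p-value 0.00120). Mbp, which was higher at 45.7 and 31.4 against 72.4 and 86.9 CPM, lost the call without clone 69 in NSG.

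The rule for fold changes named 10 protein-coding genes by fitted values, whose order is not defined where NSG had 0 counts, so no rank is read from it. Beside Ctla4, Gzmb, Cd3g, Gzma, Ifng and Cd28, these were the NK receptor genes Klrc1 (chromosome 6, 129666015 to 129678973), at least 260.4-fold higher, and Klrc2 (chromosome 6, 129647496 to 129660689), at least 108-fold higher. Reads of these neighbors may be shared. The others were Slc17a6, a vesicular glutamate transporter gene, at least 115-fold higher, and Vmn2r26, a vomeronasal receptor gene, at least 103-fold higher. Both had 0 counts in NSG and were at 15.9 and 20.6 CPM and at 15.6 and 16.5 CPM in Balb/c. In all, 60 genes that passed as higher had 0 counts in both NSG libraries.

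The 10 decreases named by the rule for fold changes include Hist1h2ba, described with the histone genes, and the other 9 are given here. Ibsp, which encodes bone sialoprotein, was at 42.5 and 44.5 CPM in NSG and 0.423 and 0.511 CPM in Balb/c (log2 fold change -6.53, SE 0.70, edgeR adjusted p-value 0.000808) and Dmp1, a matrix protein of bone and dentin, at 42.8 and 90.2 CPM in NSG and 0.582 and 0.875 CPM in Balb/c (log2 fold change -6.53, SE 0.48, edgeR adjusted p-value 0.000296). Prg4, which encodes lubricin, was at 138 and 77.5 CPM in NSG and 1.16 and 2.77 CPM in Balb/c (log2 fold change -5.81, SE 0.62, edgeR adjusted p-value 0.000777). Hoxa5 (chromosome 6, 52201754 to 52204587) was at 23.6 and 35.2 CPM in NSG and 0.159 and 0.656 CPM in Balb/c (log2 fold change -6.24, SE 0.51, edgeR adjusted p-value 0.000359), and 5730596B20Rik, in the same gene cluster, was 286-fold lower (counting interval 50.6 to 11353). Each of these was at least 10 times higher in either NSG library than in either Balb/c library. Add2, the beta chain of the membrane skeleton protein adducin, was at 25.0 and 37.5 CPM in NSG and 0.212 and 0.219 CPM in Balb/c (log2 fold change -7.12, SE 0.53, edgeR adjusted p-value 0.000296), 139-fold lower. Reg1 was 282-fold lower (counting interval 77.3 to 2335) and Zfp990 224-fold lower (counting interval 76.1 to 1091), Ceacam2 was 61.0-fold lower at 16.8 and 6.66 against 0.212 and 0.146 CPM, and the values of these 3 and of Hist1h2ba are uncertain among related copies. In all, 18 genes that passed as lower had 0 counts in both Balb/c libraries.

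By absolute level, the largest increases included Actb, Cd74, Psap and Ctss, and the largest decreases in Mir6236, Col3a1, Col1a1, Col1a2 and Fbn1. Actb, beta-actin, was at 4972 and 5039 CPM in NSG and 9029.6 and 10827 CPM in Balb/c (log2 fold change 0.99, SE 0.29, edgeR adjusted p-value 0.0340, and 0.135 with the clone as a block). Psap, which encodes a precursor of lysosomal activators, and Ctss, a lysosomal protease that processes the class II invariant chain, were at 1203 and 1209 CPM in NSG and 5502 and 3661 CPM in Balb/c (log2 fold change 1.93, SE 0.29, edgeR adjusted p-value 0.00266) and 471 and 420.0 CPM in NSG and 5105 and 2073 CPM in Balb/c (log2 fold change 3.01, SE 0.43, edgeR adjusted p-value 0.00228). Mir6236 was at 56423 and 12324 CPM in NSG and 1145 and 6439.6 CPM in Balb/c (log2 fold change -3.18, SE 0.96, edgeR adjusted p-value 0.0392, and 0.158 with the clone as a block) and took 5.79% of the counts of clone 54 in NSG. Leaving it out of the table gave 4748 genes that passed in place of 4757.

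Whether the host effect differed between tumors without and with CD95 was tested by the difference of the host effects. In wild-type tumors 4825 genes passed (31.5%), 2344 higher (15.3%) and 2481 lower (16.2%). Of these, 2533 also passed in knockout tumors, which is 53.2% of the knockout calls and 52.5% of the wild-type calls, and 2492 of them had the same direction. No gene passed the test of the difference itself (0 of 15310, 0%). The smallest edgeR adjusted p-value was 0.0691, 3452 genes had an unadjusted p-value under 0.05, and DESeq2 called 974. The count was 1 without clone 54 of either host and 2370 without clone 69 in Balb/c, which leaves clone 54 as the only Balb/c knockout library. The values that follow therefore describe both genotypes side by side, and no difference between them passed.

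The 5 genes with the smallest p-values on the positive side were Ccl24, Clec10a, Chil3, Pf4 and Rilpl2. In wild-type tumors Chil3 was at 91.0 and 83.5 CPM in NSG and 48.8 and 75.4 CPM in Balb/c. On the log2 scale, its difference of host effects was 6.17 (SE 0.70, edgeR adjusted p-value 0.0691). Clec10a was at 23.3 and 20.4 CPM in NSG and 23.8 and 23.0 CPM in Balb/c, a difference of 2.81 (SE 0.31, edgeR adjusted p-value 0.0691), and Ccl24 at 25.1 and 19.5 CPM in NSG and 43.1 and 48.0 CPM in Balb/c, a difference of 3.18 (SE 0.30, edgeR adjusted p-value 0.0691). Pf4, platelet factor 4, was at 14.8 and 23.6 CPM in NSG and 75.3 and 69.2 CPM in Balb/c in knockout and at 111 and 82.6 CPM in NSG and 35.1 and 44.8 CPM in Balb/c in wild-type tumors, a difference of 3.19 (SE 0.37, edgeR adjusted p-value 0.0691). Rilpl2, which encodes a Rab-binding protein, was at 22.3 and 18.9 CPM in NSG and 116 and 99.6 CPM in Balb/c in knockout and at 52.1 and 46.5 CPM in NSG and 57.3 and 67.0 CPM in Balb/c in wild-type tumors, a difference of 2.05 (SE 0.25, edgeR adjusted p-value 0.0691). For all 5 genes, the NSG knockout libraries were below the NSG wild-type libraries and the Balb/c knockout libraries above the Balb/c wild-type libraries. The genes were chosen by this same difference in these libraries, which favors such a pattern, so it is not separate evidence.

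On the negative side, Add2 had a difference of -5.87 (SE 0.65, edgeR adjusted p-value 0.0691), with 12.1 and 7.45 CPM in NSG and 2.89 and 5.27 CPM in Balb/c in wild-type tumors. The focal adhesion gene Tns4 was at 113 and 86.3 CPM in NSG and 12.01 and 12.1 CPM in Balb/c in knockout and at 66.8 and 76.5 CPM in NSG and 42.9 and 37.6 CPM in Balb/c in wild-type tumors, a difference of -2.22 (SE 0.26, edgeR adjusted p-value 0.0691). Ccn5, a matricellular growth regulator, and Morc4 had differences of -2.28 (SE 0.28, edgeR adjusted p-value 0.0734) and -2.84 (SE 0.37, edgeR adjusted p-value 0.0734), both lower in Balb/c in either genotype. Meg3, an imprinted noncoding RNA, was at 117 and 97.6 CPM in NSG and 18.5 and 21.6 CPM in Balb/c in knockout and at 71.5 and 111 CPM in NSG and 106 and 92.2 CPM in Balb/c in wild-type tumors, a difference of -2.55 (SE 0.33, edgeR adjusted p-value 0.0734). Its Balb/c wild-type libraries thus lay within the range of its NSG wild-type libraries.

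List by list, the T cell genes passed as higher for 17 of 17 members in either genotype, with medians of 6.32 in knockout and 5.80 in wild-type tumors. Interferon gamma targets passed for 14 of 15 in knockout and 13 of 15 in wild-type tumors, with a median of 2.58 in both. B cell genes passed as higher for 3 of 11 in knockout and 11 of 11 in wild-type tumors, with medians of 3.12 and 6.47. In knockout tumors both Balb/c libraries lay above both NSG libraries for 8 of these 11, so fewer calls do not mean no rise. Macrophage genes were higher for 13 and lower for 0 of 17 in knockout, and higher for 4 and lower for 4 in wild-type tumors. Their medians were 1.63 and -0.63. The alternatively activated list was higher for 13 of 13 in knockout and for 4, with 1 lower, in wild-type tumors, with medians of 3.99 and 0.02. Neutrophil genes were higher for 1 and lower for 4 of 17 in knockout, and higher for 7 and lower for 0 in wild-type tumors. Their medians were -0.85 and 1.95. Cell cycle genes were lower for 14 of 19 in knockout and 16 of 19 in wild-type tumors, with medians of -1.30 and -1.35. Collagen and matrix genes were lower for 13 and 3 of 16, with medians of -1.94 and -1.07. This list's median was thus below 0 in both genotypes, and its knockout count fell to 2 with the 4 knockout libraries alone. None of these members passed the test of the difference, and the list differences themselves were not tested.

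**Figure D5:**
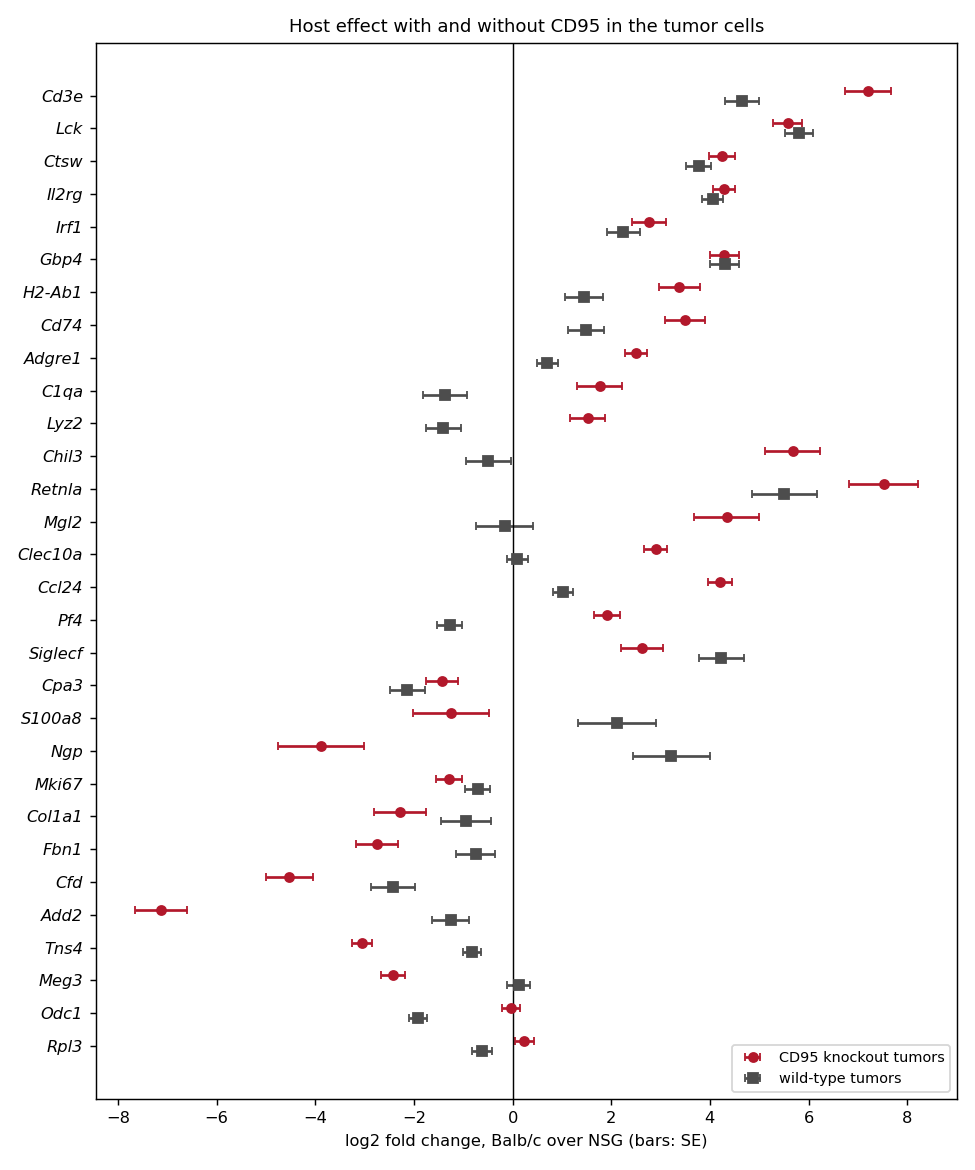
Host effect of 30 genes in CD95 knockout tumors (red circles) and in wild-type tumors (gray squares): the horizontal axis is the log2 fold change of Balb/c over NSG and bars are standard errors. The points of Lck, Irf1 and Gbp4 lie near each other in both genotypes, while the fitted values of Chil3, Mgl2 and Clec10a lie further right in knockout tumors. No gene passed the test of the difference.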

How the data were processed

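Per the labels' protocols, tumors were taken within 20 days of fat pad injection, RNA was extracted with miRNeasy and treated with DNase before standard Illumina library preparation. The submitters' processing notes name cutadapt 1.13, STAR, HTSeq 0.6.1p1, DESeq2 and the builds mm10 and hg19, without giving their roles. The authors deposited raw counts per Ensembl gene, 25006 identifiers in each of 8 files, of which 24942 matched a symbol. Positions come from GENCODE M21 on GRCm38, the build also called mm10. The strand setting is not given in the sources used here, so antisense and overlapping genes are uncertain.

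Counts were analysed with edgeR 4.0.16 in R 4.3.3 (TMM, filterByExpr, glmQLFit and glmQLFTest) in 1 model of all 8 libraries with 4 group means, which kept 15310 genes and 4 residual degrees of freedom. P-values were adjusted by Benjamini and Hochberg over all genes tested, and 0.05 was the threshold. A standard error is the fold change over the root of its F statistic. A count of 3 is 0.159 to 0.321 CPM in the knockout libraries. The pipeline was tested on simulated data. Genes were named if they were Fas, Fasl or Il2rg, led a list, had the largest fold changes (higher group at 5 CPM or more, no overlap) or level differences, or had the smallest p-values in the test of the difference, with further list members to spell out counts. Some genes that met the rule are not reported here. Members, lists and tests were chosen with earlier results of these data known. Pairing comes from the clone names, since clones 54 and 69 were each grown in both hosts. Across genes, the difference between clones in one host and that in the other had r of -0.35. Alternatives were the clone as a block, RLE and total-count scaling, DESeq2 1.42.0, no filter, thinning, GC and length trends, the 4 knockout libraries alone and leaving out each library.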

Additional observations from a re-analysis of the deposited data

How the results depend on the processing

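The host effect in knockout tumors kept a count between 4560 and 4964 genes with RLE or total-count scaling, DESeq2, no filter, thinning to the smallest total and GC and length correction. It fell to 2878 with the replicate block, to 2828 with the block after thinning, to 2876 with the block after GC and length correction, and to 2450 with the 4 knockout libraries alone. Leaving out 1 library gave 2461 to 4640 genes. The test of the difference of host effects gave 0 genes with edgeR as reported, 974 with DESeq2 and 674 with no filter, and leaving out 1 library gave 0 to 2370. A crossed pairing of clones, chosen after the data were seen because same-named clones did not deviate together, gave 5436 genes for the host effect and 307 for the difference. The causes were not tested. For the 263 genes named in the text, the replicate block ended 41 calls, DESeq2 1 and leaving out 1 knockout library 21 to 49, and no call changed direction. The fit on the 4 knockout libraries alone ended 51 calls among the 261 of these genes that it tested. Of 54 list counts above 0, the block moved 18 by more than 1.5 times and the 4 knockout libraries alone 22. With 2 libraries a group, each a different clone, clone and replicate error cannot be told apart, and levels near the floor of 3 counts were not resolved at this depth.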
